A study of Mus musculus with 4 samples.

Results

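The matrix metalloproteases (Mmp), the Adamts proteases with their Adamts-like relatives (Adamtsl) and the tissue inhibitors of metalloproteases (Timp) were followed through the cell types of mouse pancreatic tumours. The genes were taken by symbol, whatever their level, which gave 50 of the 32285 genes listed in the count matrices. They comprised 22 Mmp, 19 Adamts, 5 Adamtsl and 4 Timp genes. Mmp1b and Mmp21 had no unique molecular identifier (UMI) in any cell, 6 genes including these had fewer than 10 UMIs, and 15 reached 100 CPM (UMIs in each 1000000 of a summed cell type) in some cell type. Those 15 were 8 Mmp genes, 4 Adamts genes and 3 Timp genes, and no Adamtsl gene reached that level.

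The tumours came from lines of KPC cells, which are murine pancreatic cancer cells, grown in the pancreas of C57BL/6J animals without treatment and taken on day 13. There were 4 single-cell libraries of 5′ chemistry, namely an enriched and a whole library for line KPC-4545 (replicate 1) and the same pair for line KPC-3403 (replicate 2). Whole libraries held the unsorted suspension, and for enriched libraries leukocytes (CD45), endothelium (CD31), EPCAM-bearing epithelium and red cells (TER119) were sorted away. Separate animals are not stated in the labels, and the enriched and whole library of a line may share a tumour. A p-value here therefore reflects the spread left over by a fit to the libraries, and part of it may be technical. In the main fit library was a block, so what was left is how cell type differences varied between libraries, pooled over types.

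Metalloproteases are zinc enzymes that are made as inactive precursors and cut collagens, elastin, proteoglycans and other matrix proteins once activated. Adamts proteases act on proteoglycans or trim procollagens, Adamtsl proteins share their matrix-binding repeats without the protease domain, and Timps bind the active site of metalloproteases and block it. In pancreatic cancer a dense collagen-rich stroma surrounds the tumour glands, and these enzymes and inhibitors take part in laying it down and remodelling it.

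Cell types were gated on marker UMIs, and 4086 of 5503 cells (74.25%) received a class. In line KPC-4545 (enriched, then whole) and then line KPC-3403 (enriched, then whole) the cells numbered 1430, 521, 2478 and 1074, from totals of 47207893, 5746733, 51450719 and 13990046 UMIs. Fibroblasts numbered 25, 0, 382 and 19, stromal cells with a UMI of the mesothelial genes Wt1 or Gpm6a (called Wt1-positive stroma) 24, 9, 1003 and 27, and mesothelial cells 4, 2, 153 and 3. Tumour cells numbered 731, 65, 618 and 274, macrophages 1, 24, 0 and 38, and neutrophils 2, 16, 17 and 78. The macrophage gate needed at least 2 of C1qa, C1qb, C1qc, Csf1r, Adgre1, Ms4a7, Ly6c2, Ccr2, Lyz2 and Fcgr1. It was a gate for macrophages or monocytes, and cells called macrophages below may include monocytes. UMIs were summed for each class and library with at least 10 cells, and all levels are CPM of such a sum.

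The class markers followed the gates that used them: the 8 fibroblast markers summed to between 24851 and 35181 CPM in fibroblasts and to at most 97.5 CPM in tumour cells, and the 4 keratin markers to between 3807 and 8548 CPM in tumour cells. Enriched KPC-4545 and whole KPC-3403 shared 121 cell barcodes against 4 to 8 in every other pair of libraries, and the shallower copy of such a barcode was set aside. With those barcodes kept, fibroblasts of enriched KPC-4545 numbered 32 in place of 25, and the largest shift of any member at 100 CPM or more in a class was 0.148 on the log2 scale (Mmp19). Cells with at least 3 UMIs of Cdkn2a, a gene high in the tumour cells, made up 29 of 382 fibroblasts of enriched KPC-3403 (7.59%).

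Of the Mmp genes, 9 lie side by side within 427.1 kb of chromosome 9, in the order Mmp13, Mmp12, Mmp1b, Mmp3, Mmp10, Mmp8, Mmp27, Mmp20 and Mmp7. By the highest library of each class, Mmp3 was highest in stroma, Mmp12 in macrophages, Mmp8 in neutrophils and Mmp7 in tumour cells. Mmp13 was found in macrophages and a few stromal and tumour cells. In whole KPC-4545, however, Mmp8 was 47.9 CPM higher in macrophages than in neutrophils. All 24 Mmp7 UMIs in the tumour cells of that library came from a single cell. The 250 bases before the start of 4 of these 9 genes are shown. Mmp12 had its highest level in macrophages, Mmp3 in Wt1-positive stroma and Mmp8 in neutrophils. Mmp13 also read highest in macrophages among the main classes, at 77.0 CPM, but a single cell held most of those UMIs. In enriched KPC-3403, fibroblasts held Mmp13 at 53.75 CPM and cells in no gate at 201.43 CPM. The sequences shown are from RefSeq on build GRCm38.p6, plus strand, 5′ to 3′. Their positions are chr9:7445572-7445821 (Mmp3), chr9:7347124-7347373 (Mmp12, the second of its listed starts), chr9:7272264-7272513 (Mmp13) and chr9:7558179-7558428 (Mmp8). Capitals mark the letters TGAGTCA or, on the other strand, TGACTCA, the core motif bound by AP-1 factors.
Mmp3: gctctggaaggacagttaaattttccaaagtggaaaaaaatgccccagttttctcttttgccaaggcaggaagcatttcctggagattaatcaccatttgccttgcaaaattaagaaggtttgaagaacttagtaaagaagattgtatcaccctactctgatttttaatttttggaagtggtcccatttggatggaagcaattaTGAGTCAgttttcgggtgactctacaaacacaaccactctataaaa
Mmp12: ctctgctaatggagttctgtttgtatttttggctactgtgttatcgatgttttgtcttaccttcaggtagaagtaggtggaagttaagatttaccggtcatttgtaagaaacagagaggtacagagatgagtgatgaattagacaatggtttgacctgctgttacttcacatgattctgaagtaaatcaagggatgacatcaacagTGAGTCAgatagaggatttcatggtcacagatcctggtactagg
Mmp13: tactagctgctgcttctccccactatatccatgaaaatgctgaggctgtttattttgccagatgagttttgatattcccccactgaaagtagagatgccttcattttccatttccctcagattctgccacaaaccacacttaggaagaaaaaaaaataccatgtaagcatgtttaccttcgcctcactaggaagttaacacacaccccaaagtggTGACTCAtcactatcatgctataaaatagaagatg
Mmp8: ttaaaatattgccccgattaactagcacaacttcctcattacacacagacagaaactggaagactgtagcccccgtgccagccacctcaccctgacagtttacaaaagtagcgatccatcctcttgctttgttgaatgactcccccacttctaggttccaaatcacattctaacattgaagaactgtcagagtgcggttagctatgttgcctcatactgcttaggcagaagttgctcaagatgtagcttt
The motif was present in 6 of these 9 genes, at 46 bases before the start in Mmp3, 44 in Mmp12, 35 in Mmp13, 93 in Mmp1b and 63 in both Mmp10 and Mmp7. Counted by promoter, 6 of the 11 listed promoters of these 9 genes held it. Among all 32851 promoters of the same length, 4.46% held it on either strand. Of the 50 members, 35 had a promoter entry, and none of the 26 outside the cluster held the motif. Mmp1b, which had no UMI, and Mmp3 both carried it, while Mmp8 did not.

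**Figure D1:**
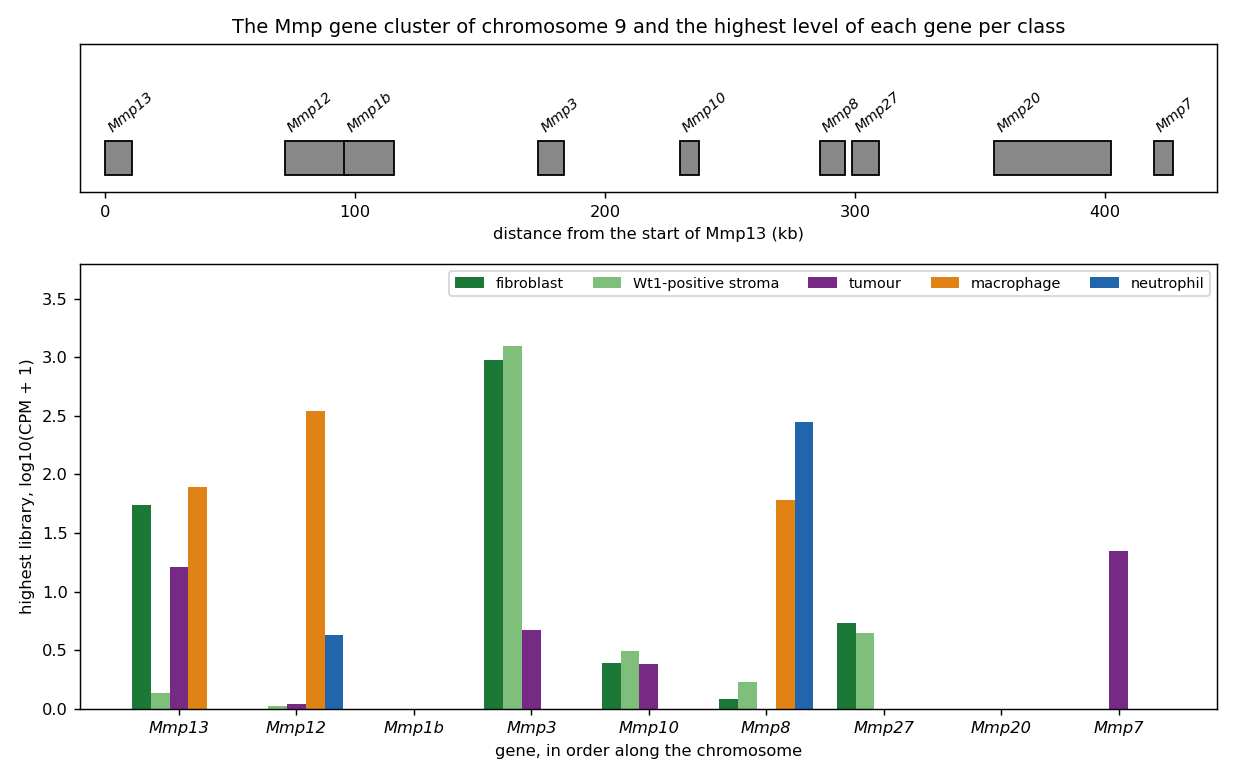
The upper panel places the 9 Mmp genes by distance from the start of Mmp13 in kb, and the lower panel gives, for each gene, the highest library of each class as log10(CPM + 1). Mmp3 stands highest in fibroblasts and Wt1-positive stroma, Mmp12 in macrophages, Mmp8 in neutrophils and Mmp7 in tumour cells. The Mmp7 value comes from a single cell, and in whole KPC-4545 Mmp8 was higher in macrophages than in neutrophils.

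Fibroblasts against tumour cells asked which of these genes were stromal. In edgeR's quasi-likelihood test 34 members could be tested, 17 were higher in fibroblasts and 1 was lower at an adjusted p under 0.05, against 14.3% of all genes higher and 9.83% lower. The median log2 difference was 2.56 over the 34 members and -0.02 over all genes tested. With the stromal cells that carried Cdkn2a left out, 31 members could be tested and 16 were higher. The 17 comprised 4 Mmp, 10 Adamts, 1 Adamtsl and 2 Timp genes.

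Mmp2, a gelatinase that cuts denatured and basement-membrane collagen (chromosome 8, 92827291-92853420, GRCm38), was at 1083, 765 and 678 CPM in fibroblasts of enriched KPC-4545 and of KPC-3403, enriched and whole, an order kept for fibroblasts below. The 4 tumour sums lay between 0.224 and 3.47 CPM, so the classes did not overlap, and the log2 difference was 9.37 ± 0.66 (SE; edgeR adjusted p = 3.46e-08). A UMI of Mmp2 was seen in 76.0%, 81.9% and 84.2% of fibroblasts, and in at most 6.70% of tumour cells. Median depth was 3951 to 10945 UMIs in those fibroblasts and 9543 to 33374 in tumour cells, so the tumour cells were not the shallower class.

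Mmp14, the membrane-bound protease that activates the Mmp2 precursor (chromosome 14, 54431612-54445364), was at 393, 499 and 370 CPM in fibroblasts. Tumour cells held it too, at 102, 79.9, 76.5 and 55.7 CPM in the order of libraries above, and the difference was 2.53 ± 0.38 on the log2 scale (edgeR adjusted p = 2.87e-05). Mmp23, a membrane-anchored member (chromosome 4, 155650655-155653384), read 199, 274 and 179 CPM in fibroblasts and at most 1.78 CPM in tumour cells (log2 difference 8.60 ± 0.65). Mmp19 (chromosome 10, 128790910-128800824) was at 102, 105 and 92.4 CPM against at most 3.99 CPM, and rose by 5.23 ± 0.50. For all 4 of these Mmp genes, which had passed the test on the same sums, the lowest fibroblast sum lay above the highest tumour sum. The share of all genes that did so is not given here.

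Mmp3, stromelysin 1, which cuts proteoglycans and activates other precursors (chromosome 9, 7445822-7455975), varied far more. Fibroblast sums were at 944, 428 and 61.6 CPM, the last resting on 10 UMIs in 19 cells, and tumour sums at 0, 0, 3.72 and 0 CPM. The groups did not overlap, yet the log2 difference of 8.29 ± 2.51 did not pass (edgeR adjusted p = 0.0888). Within line KPC-3403 the enriched fibroblasts read 6.95 times the whole ones (95% counting interval 3.77 to 14.5), and no replicate check was possible for that ratio.

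Mmp15, a membrane-type metalloprotease, was the 1 member lower in fibroblasts. It was at 0.251, 30.2, 6.73 and 14.5 CPM in tumour cells and at 0, 0.21 and 0 CPM in fibroblasts, with a log2 difference of -4.74 ± 1.26 (edgeR adjusted p = 0.00933). The enriched KPC-4545 tumour cells, which had the deepest sum, were close to the fibroblast level. The call was lost in 3 of 12 alternative analyses, among them without whole replicate 2 (-4.74).

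Of the 7 listed proteoglycan-cutting Adamts proteases 5 could be tested and 4 were higher in fibroblasts. Adamts5, an aggrecanase (chromosome 16, 85856173-85901828), was at 167, 238 and 179 CPM in fibroblasts and at most 2.88 CPM in tumour cells, a difference of 6.55 ± 0.48 on the log2 scale (edgeR adjusted p = 5.86e-09). Its neighbour Adamts1, which also cuts versican and aggrecan (chromosome 16, 85793827-85803113), read 185, 238 and 142 CPM in fibroblasts. It was also present in tumour cells, at 86.1 and 64.4 CPM in the KPC-3403 libraries and 11.5 and 13.3 CPM in the KPC-4545 libraries, and the log2 difference was 1.99 ± 0.62 (edgeR adjusted p = 0.0448). That call was lost in 5 of 14 alternatives, including without enriched replicate 2 (2.28).

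Adamts4, the other classical aggrecanase, was higher by 5.00 and Adamts9 by 2.12 on the log2 scale (edgeR adjusted p = 1.67e-06 and 0.0120). Adamts9 lost its call without enriched replicate 2 (2.02) and without whole replicate 2 (1.52). Adamts15 (chromosome 9, 30899155-30922452) read 120, 76.8 and 86.2 CPM in fibroblasts and at most 5.37 CPM in tumour cells, but its difference of 5.64 ± 1.46 did not pass (edgeR adjusted p = 0.0513).

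The procollagen-trimming enzymes followed the same direction. Adamts2, which removes the amino-terminal propeptide of fibrillar procollagens (chromosome 11, 50602084-50807573), was at 245, 268 and 339 CPM in fibroblasts and at most 1.88 CPM in tumour cells (8.52 ± 0.74 on the log2 scale, edgeR adjusted p = 1.07e-05). Its relative Adamts14 was higher by 3.90, on 28.8 CPM in enriched KPC-3403 fibroblasts. Adamts12, Adamts7, Adamts10 and Adamts16 were higher by 6.87, 3.73, 2.88 and 3.78, all from levels at or under 64.8 CPM in every fibroblast sum. The Adamts-like gene Adamtsl1 was at 78.7, 59.2 and 55.4 CPM in fibroblasts and at most 4.68 CPM in tumour cells, a log2 difference of 5.71 ± 1.31. Without whole replicate 2 the calls of Adamts14 (2.96) and Adamtsl1 (5.31) were lost.

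**Figure D2:**
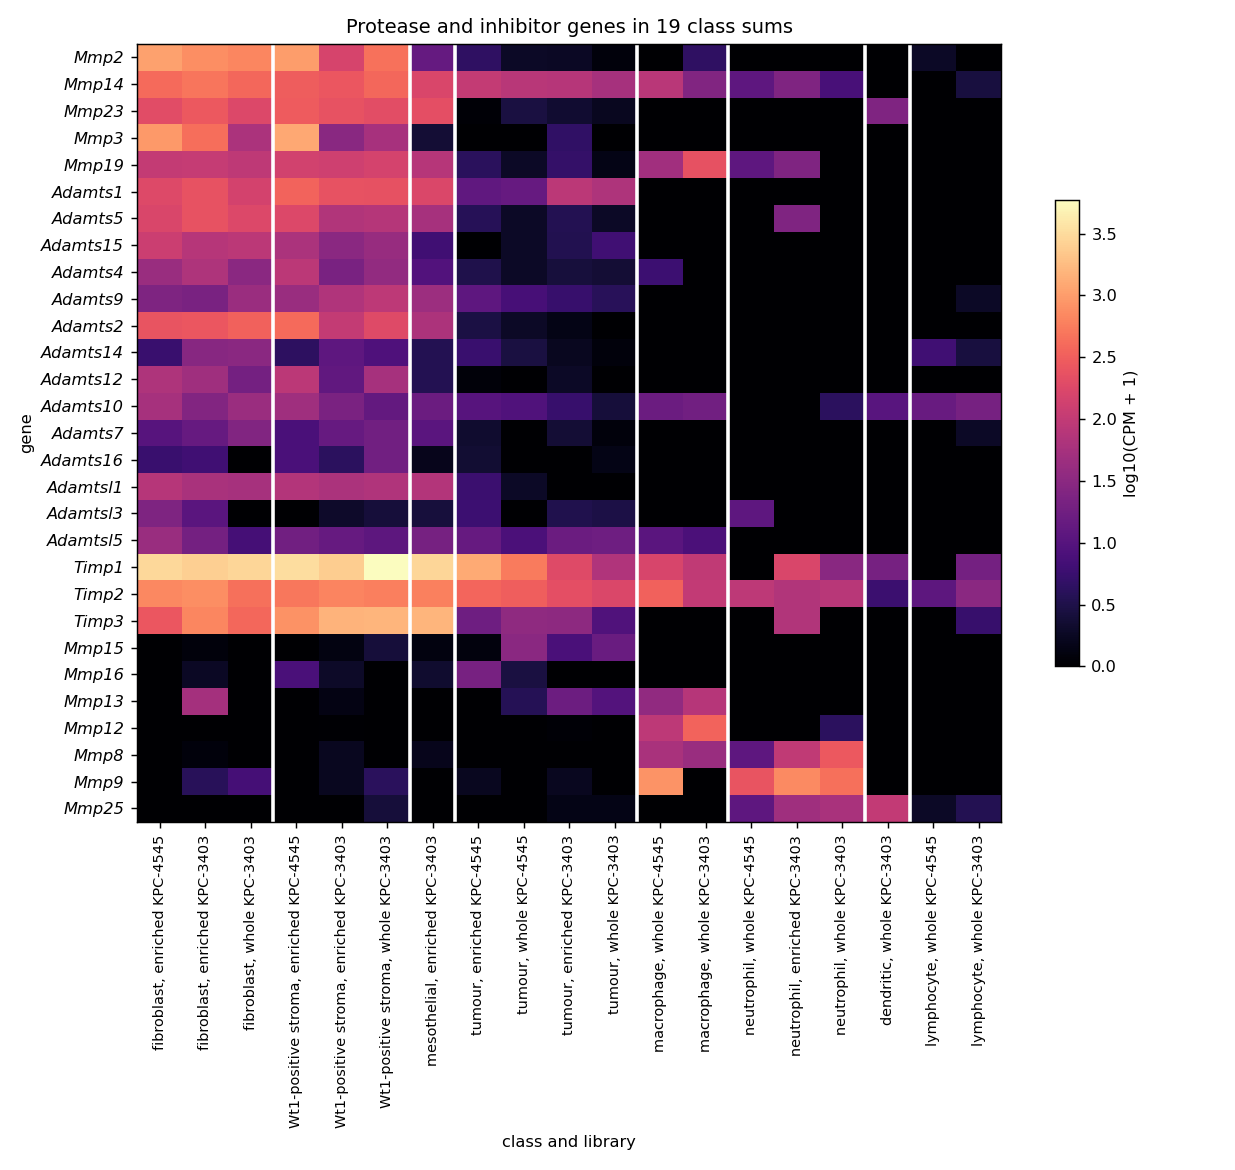
Heat map of 29 members (vertical axis) in 19 class sums (horizontal axis, class and library), coloured by log10(CPM + 1). The stromal columns on the left carry Mmp2, Mmp14, Mmp23, the Adamts genes and the Timps, and the myeloid columns carry Mmp8, Mmp9, Mmp12 and Mmp25.

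The 3 expressed inhibitors behaved differently. Timp3, which stays bound to the matrix and also inhibits Adamts proteases (chromosome 10, 86300372-86349506), was at 269, 670 and 370 CPM in fibroblasts and 15.9, 33.7, 32.3 and 7.83 CPM in tumour cells (log2 difference 4.36 ± 0.69, edgeR adjusted p = 0.000428). Timp2, the partner of Mmp14 in activating Mmp2 (chromosome 11, 118301069-118355740), was broad. It read 681, 764 and 450 CPM in fibroblasts and 357, 316, 217 and 171 CPM in tumour cells, higher by 1.35 ± 0.44 (edgeR adjusted p = 0.0297). The call was lost in 4 of 14 alternatives, including without enriched replicate 2 (0.99) and without whole replicate 2 (1.36).

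Timp1 (chromosome X, 20870166-20874735) had the highest level of the set in fibroblasts, at 2991, 2535 and 2877 CPM. Tumour cells read 1278, 542, 189 and 67.3 CPM, below every fibroblast sum, but the log2 difference of 2.58 ± 1.16 did not pass (edgeR adjusted p = 0.153). In enriched KPC-4545, 1 fibroblast held 511 of the 646 Timp1 UMIs. Without that cell the fibroblast level was 729 CPM, below the 1278 CPM of the tumour cells of the same library. Timp4 had 1 UMI in all cells.

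Each of Timp1, Timp3 and Timp4 lies inside a synapsin gene on the opposite strand, Syn1, Syn3 and Syn2. Timp1 overlaps no annotated exon of its host, whereas Timp3 and Timp4 do. Whether strand was used in counting is not given in the sources used here. Without it, reads from where Timp3 or Timp4 overlaps an exon of its host cannot be told apart. Syn1 and Syn3 were at most 8.40 and 14.8 CPM in any class.

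**Figure D3:**
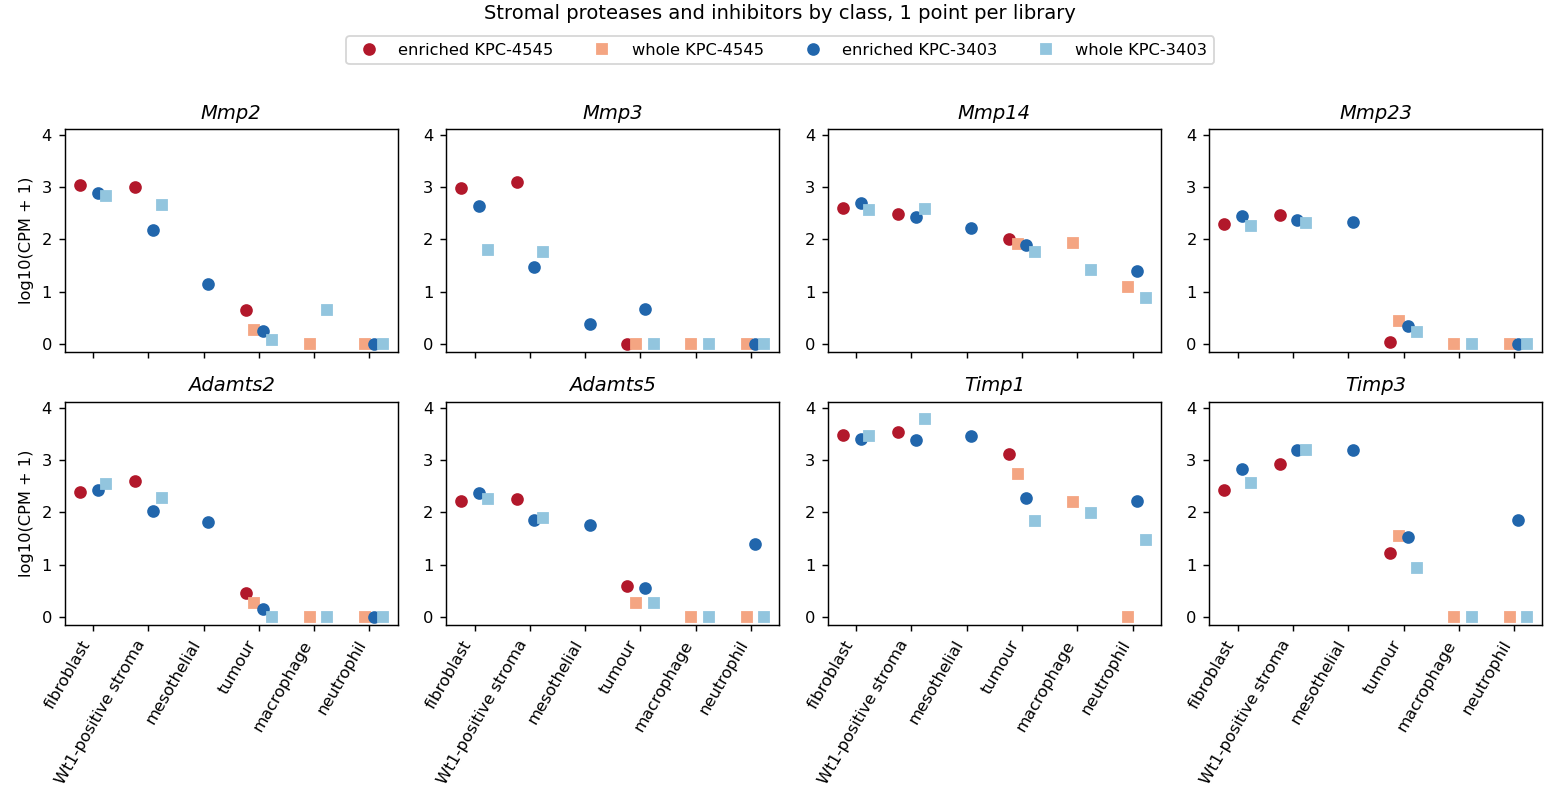
Each panel gives 1 gene as log10(CPM + 1) by class, with 1 point per library. Mmp2, Mmp23, Adamts2 and Adamts5 separate stromal from tumour and myeloid sums, whereas Mmp14 and Timp1 run through tumour cells and macrophages as well.

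Genes that work beside this set were counted from a fixed list in 3 groups, again against 14.3% of all genes higher and 9.83% lower in fibroblasts than in tumour cells. Among 17 tested genes for activation, clearance and binding of proteases, 11 were higher in fibroblasts than in tumour cells and 1 was lower. Among the higher genes was Lrp1, the endocytic receptor that clears many proteases (log2 difference 4.12). Lower was Plaur, the urokinase receptor (-1.80). Of 9 tested Adamts substrates and matrix genes 7 were higher and 1 lower, with biglycan (Bgn) at 7.43 and fibrillin 1 (Fbn1) at 6.75. Of 15 other proteases and sheddases 7 were higher and 1 lower. Bmp1, which removes the carboxy-terminal propeptide of procollagens, was higher by 4.43, and the collagen-cutting cathepsin Ctsk by 10.4.

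Within fibroblasts, contractile cells (Acta2, Tagln and Myl9) were set against universal-like cells (Pi16, Dpt, Clec3b and Scara5). Both met in enriched KPC-3403 alone, with 53 and 219 cells, so the ratios compare 1 library with itself, carry intervals for counting error only and have no replicate check. Among 30 members with enough UMIs, 3 were at least 4-fold higher in contractile cells and 3 at least 4-fold lower, against 2.81% and 3.69% of all genes.

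Timp3 was at 1641 CPM in contractile and 186 CPM in universal-like cells, a ratio of 8.81 (95% counting interval 7.93 to 9.81). Timp1 was at 6326 and 1340 CPM, a ratio of 4.72 (4.52 to 4.93). Adamts5 ran the other way, at 40.7 and 381 CPM, a ratio of 0.107 (0.0748 to 0.149). The remaining fibroblasts lay between, with Timp3 at 897 CPM and Adamts5 at 112 CPM in the same library. None of these 3 contractile levels rested on 1 cell. Without the highest contractile cell Timp3 was at 1579 CPM, Timp1 at 5773 CPM and Adamts5 at 33.0 CPM. Timp1 in universal-like cells was at 1141 CPM without the highest cell.

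Mmp3 was at 153 CPM in contractile cells and 699 CPM in universal-like cells, a ratio of 0.219 (0.183 to 0.260). Of the 139 contractile UMIs, 133 came from 1 cell, and without it the level was 6.72 CPM. A UMI of Mmp3 was found in 59.8% of universal-like cells, 11.3% of contractile cells and 0.485% of tumour cells of the library. After thinning to 2000 UMIs per cell the shares were 41.6% and 5.77% for the 2 fibroblast types. In enriched KPC-4545 the 11 universal-like cells held Mmp3 at 1545 CPM, and contractile cells were too few there to sum.

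Mmp13, a collagenase, was 5.12 times higher in contractile cells, but 104 of its 113 UMIs came from 1 cell. Without the highest cell of each type the levels were 10.1 and 15.5 CPM, which turns the direction. Adamtsl3 (ratio 0.226) rested on 3 and 36 UMIs. Mmp2 and Timp2 were lower in contractile cells by ratios of 0.52 and 0.469, within the 4-fold limit. Mmp14 was at 647 and 521 CPM and Mmp23 at 296 and 307 CPM.

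**Figure D4:**
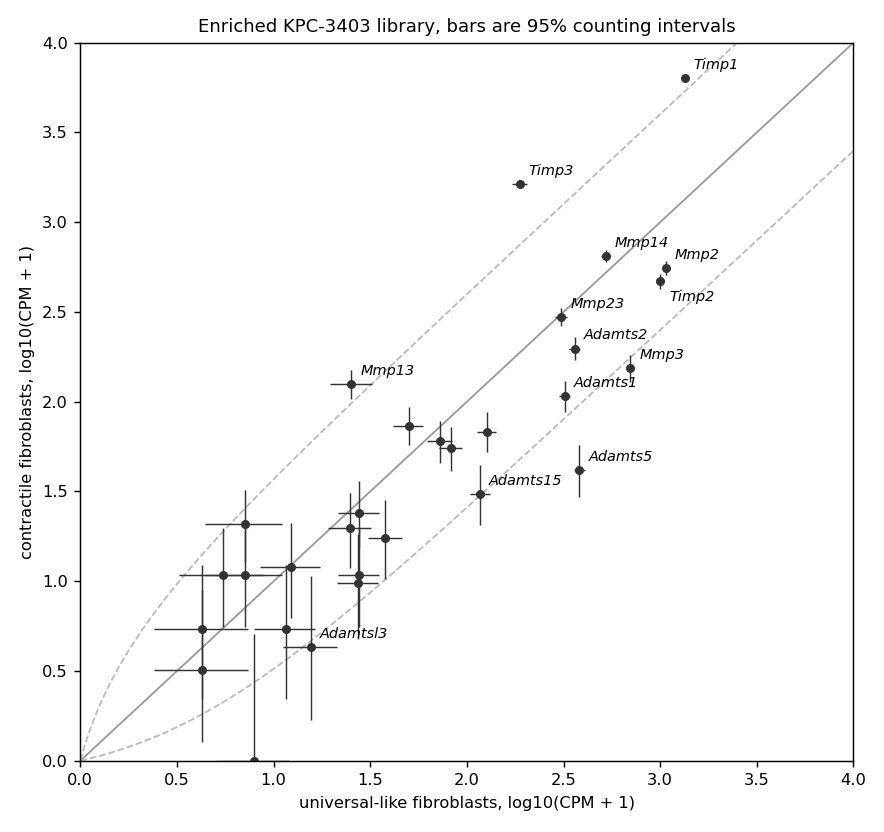
Members of enriched KPC-3403 fibroblasts as log10(CPM + 1) in universal-like cells (horizontal) and contractile cells (vertical), with 95% counting intervals as bars. The solid line marks equal levels and the dashed lines a 4-fold difference, with Timp3 and Timp1 above the upper line and Adamts5 and Mmp3 below the lower one.

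Stromal cells with Wt1 or Gpm6a were set against the fibroblasts without them. In edgeR's test of 34 members 1 was higher in fibroblasts (0.305% of all genes were) and 0 were lower (0.174%). At an unadjusted p under 0.05, edgeR gave 369 genes higher and 317 lower. The 1 call was Mmp13 at 0, 53.8 and 0 CPM in fibroblasts and 0, 0.373 and 0 CPM in Wt1-positive stroma, which rests on 9 cells of 1 library. The call was lost with DESeq2 and without enriched replicate 2, and without enriched replicate 1 the count was 3.

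Timp3 was at 829, 1531 and 1544 CPM in Wt1-positive stroma, above the fibroblasts of the same library in 3 of 3 libraries, but the difference did not pass (log2 -1.72 ± 0.61, edgeR adjusted p = 0.492). Mmp2 in Wt1-positive stroma was at 998, 153 and 462 CPM and Mmp3 at 1249, 29.1 and 57.5 CPM, so KPC-4545 was high for both. Of the 363 Mmp3 UMIs in the 24 KPC-4545 cells, 194 came from 1 cell, and the level without it was 636 CPM. Between enriched libraries the KPC-4545 to KPC-3403 ratio was 42.9 for Mmp3 (95% counting interval 37.5 to 49.1), 6.52 for Mmp2, and Adamts2 stood at 403 and 103 CPM.

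Wt1-positive cells were deeper, with medians of 12194, 18348 and 22282 UMIs. Among cells of at least 10000 UMIs in enriched KPC-3403, fibroblasts read 737 CPM for Mmp2, 401 for Mmp3 and 616 for Timp3. Wt1-positive cells of that depth read 146, 23.2 and 1539 CPM. These values come from 1 library, and the part of depth in the differences was not tested.

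Mesothelial cells, the lining cells, were gated on keratins together with at least 2 of Upk3b, Lrrn4, Nkain4, Wt1 and Gpm6a. They could be summed in enriched KPC-3403 alone, where the fibroblast markers summed to 9361 CPM in them and 35181 CPM in fibroblasts. Set against fibroblasts of that library, 35 members were compared, 12 were at least 4-fold higher in fibroblasts (5.81% of all genes) and 1 at least 4-fold lower (4.44%). The ratio was 306 for Mmp3 (428 and 1.40 CPM; lower bound of the 95% counting interval 131) and 59.5 for Mmp2 (765 and 12.9 CPM; 44.5 to 81.4). Mmp13, with no mesothelial UMI, was at least 64.1-fold higher in fibroblasts against a floor of 3 UMIs.

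The Adamts genes of the 12 were Adamts12 (ratio 18.8), Adamts15 (14.5), Adamts14 (11.4), Adamts16 (9.77), Adamts4 (7.95), Adamts17 (6.76, on 9 and 1 UMIs with an interval of 0.937 to 296), Adamts5 (4.25) and Adamts2 (4.23). Adamtsl3 completed them at 5.88, and the 1 lower gene, Adamts20, rested on 2 and 8 UMIs. The inhibitors did not follow. Mesothelial cells held Timp1 at 2882 CPM against 2535 in fibroblasts, Timp2 at 593 against 764, and Timp3 at 1543 against 670 (fibroblast to mesothelial ratio 0.435, 0.416 to 0.454). Mmp23 at 217 CPM and Adamts1 at 169 CPM were also near the fibroblast values of 274 and 238 CPM.

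Summed over each family, the Timp to Mmp ratio of UMIs, given as a description with no test, was 1.43, 1.84 and 2.66 in fibroblasts, 1.54, 5.53 and 6.32 in Wt1-positive stroma and 10.3 in mesothelial cells. With Timp1 taken without its highest cell, enriched KPC-4545 fibroblasts read 0.61 in place of 1.43. In the same way Wt1-positive stroma of whole KPC-3403 read 4.64 in place of 6.32. Within enriched KPC-3403 fibroblasts it was 4.50 in contractile and 0.906 in universal-like cells. Neutrophils read 0.308, 0.342 and 0.139 and macrophages 0.43 and 0.266. The first macrophage value rests on the 1 cell that held all 171 Mmp9 UMIs, and with Mmp9 taken without that cell it was 1.58. In tumour cells the ratio was 10.4, 5.43, 3.39 and 2.72, with Timp1 making up 77.4% of Timp UMIs in enriched KPC-4545 and 27.4% in whole KPC-3403.

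Tumour cells differed between the lines in 2 members. Of 22 tested, 1 was higher in KPC-4545 (0.413% of all genes) and 1 was lower (0.248%). Timp1 was higher by 2.80 ± 0.24 on the log2 scale (edgeR adjusted p = 0.0154), with both KPC-4545 sums, 1278 and 542 CPM, above both KPC-3403 sums, 189 and 67.3 CPM. Adamts1 was lower, at -2.71 ± 0.32 (edgeR adjusted p = 0.0366), at 11.5 and 13.3 against 86.1 and 64.4 CPM.

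The fit left 1 residual degree of freedom, and each of these calls was lost in 6 of 13 alternatives, all with the direction kept. Timp1 lost it without each of the 4 libraries in turn (2.01 to 3.65), and Adamts1 without enriched replicate 1, enriched replicate 2 or whole replicate 2 (-2.94 to -2.48). A UMI of Timp1 was present in 92.1%, 63.1%, 52.9% and 35.8% of tumour cells, and Adamts1 in 17.5%, 12.3%, 45.6% and 34.3%. Mmp16, a membrane-type protease named here after its values were seen, was at 19.7 and 1.78 CPM in KPC-4545 and at 0 in both KPC-3403 sums, where 3 UMIs would be 0.266 and 0.671 CPM (edgeR adjusted p = 0.0583). The line is also the replicate, and the batch of each line is not given, so line and replicate cannot be told apart.

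Between enriched and whole libraries, 0 of 22 members passed in tumour cells in either direction (0% and 0.0248% of all genes; 589 and 625 genes at an unadjusted p under 0.05 with edgeR, and 2 members with DESeq2). Timp1 was higher in the enriched sum of both lines, by 1.33 ± 0.23 on the log2 scale (edgeR adjusted p = 0.222). The sort acts on EPCAM, and Epcam in tumour cells was at 0.167 and 36.0 CPM in the enriched sums and 420 and 552 CPM in the whole ones. Its part in the Timp1 difference was not tested. Mmp7, matrilysin, reached 21.3 CPM in whole KPC-4545 tumour cells, but all 24 UMIs came from 1 cell.

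Myeloid cells were compared with each other and with the other classes. In macrophages against neutrophils 34 members were tested, 3 were higher in macrophages (3.89% of all genes) and 0 were lower (1.52%; 1694 genes higher and 618 lower at an unadjusted p under 0.05 with edgeR, and 1 member called with DESeq2). Macrophages came from the whole libraries only, and the neutrophils of enriched KPC-3403 were 17 cells that passed the CD45 sort.

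Mmp12, macrophage elastase (chromosome 9, 7344381-7369499), was at 88.6 and 347 CPM in the macrophages of whole KPC-4545 and whole KPC-3403. Neutrophils had 0, 0 and 3.22 CPM, the last from 1 UMI, and the log2 difference was 6.69 ± 0.96 (edgeR adjusted p = 0.000452). In whole KPC-3403, 61 of 99 UMIs lay in 1 macrophage and the level without it was 140 CPM, still above every neutrophil sum. A UMI of Mmp12 was seen in 20.8% and 21.1% of macrophages.

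Mmp19 was at 49.2 and 231 CPM in macrophages and 11.1, 23.7 and 0 CPM in neutrophils (4.94 ± 0.93, edgeR adjusted p = 0.00406). Its macrophage level in whole KPC-3403 was above the 92.4 CPM of the fibroblasts of that library. Mmp13 (chromosome 9, 7272514-7283331) was at 34.4 and 77.0 CPM in macrophages and had no UMI in neutrophils (edgeR adjusted p = 0.0122). The floor of 3 UMIs is 33.3 CPM in the shallowest whole neutrophil sum, and 18 of the 22 UMIs of whole KPC-3403 came from 1 macrophage. Its call was lost without enriched replicate 2 (10.42).

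Mmp8, neutrophil collagenase (chromosome 9, 7558456-7568485), read 11.1, 94.7 and 277 CPM in neutrophils of whole KPC-4545 and of KPC-3403, enriched and whole. Macrophages overlapped with these, at 59.0 and 42.0 CPM, and no difference passed (edgeR adjusted p = 0.551). Mmp9, gelatinase B (chromosome 2, 164940780-164955850), read 244, 710 and 442 CPM in neutrophils, with a UMI in 37.5%, 88.2% and 51.3% of them. Macrophages had 841 and 0 CPM, and all 171 UMIs of the first value came from 1 cell (edgeR adjusted p = 0.853). Mmp25, a membrane-type protease of leukocytes, was at 11.1, 47.4 and 58.0 CPM in neutrophils, 0 in macrophages and 99.4 CPM in the 20 dendritic cells (macrophages against neutrophils, edgeR adjusted p = 0.0515). Of the 21 dendritic UMIs 11 came from 1 cell, and without it the level was 51.1 CPM, below the neutrophils of that library.

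**Figure D5:**
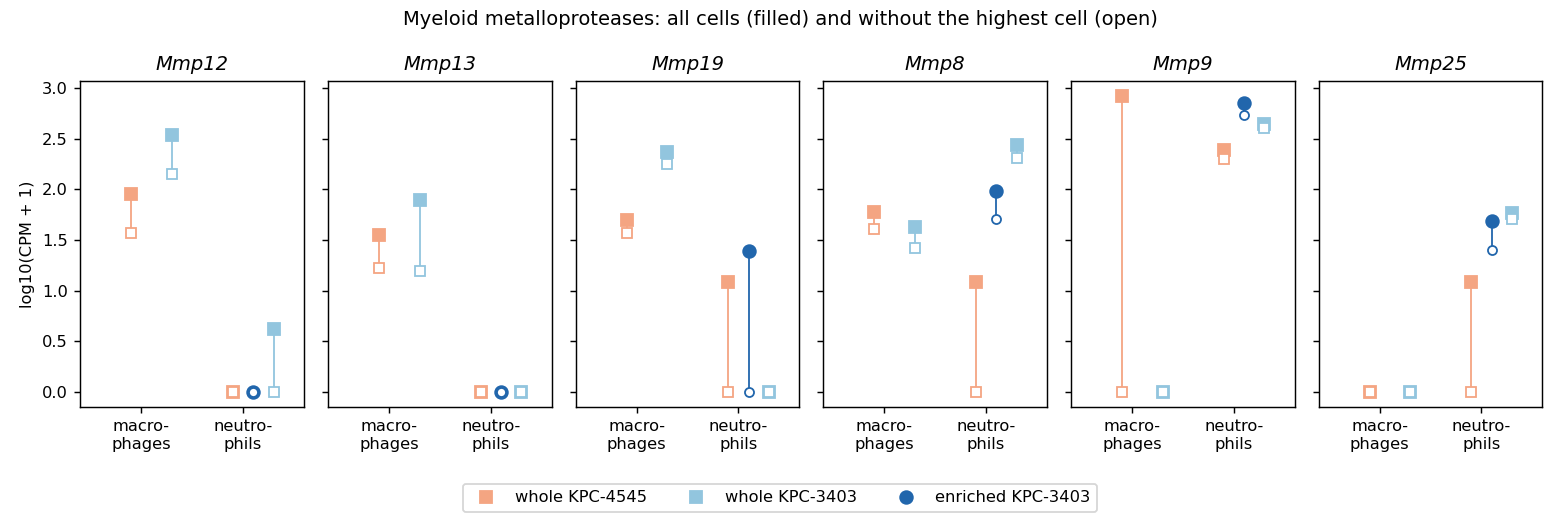
Filled points give log10(CPM + 1) of 6 metalloproteases in macrophages and neutrophils, 1 point per library, and open points the same without the cell that held most UMIs. Mmp9 of whole KPC-4545 macrophages falls from 841 to 0 CPM without 1 cell, while Mmp12 stays above the neutrophils.

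Fibroblasts were also set against neutrophils. Sums of both classes met only in the enriched and whole libraries of KPC-3403, so the direct contrast within a library comes from a single line. Of 34 members tested 15 were higher in fibroblasts (17.7% of all genes) and 3 were lower (8.96%). The 3 were Mmp25, Mmp8 and Mmp9, the last at -7.30 ± 1.99 on the log2 scale (edgeR adjusted p = 0.0314). The 15 included Mmp14, higher by 5.29 ± 0.65 (edgeR adjusted p = 3.63e-06), Timp2 by 2.80 ± 0.56, Timp1 by 5.70 (edgeR adjusted p = 0.0222) and Mmp19 by 3.66 ± 0.95. Mmp2, Mmp23, Adamts1, Adamts2, Adamts4, Adamts9, Adamtsl5 and Mmp13 also passed, with no neutrophil UMI, so that their fitted differences are no bounds. Adamts5, Adamts10 and Timp3 made up the rest. Without whole replicate 1 the calls of Adamts9, Adamts10, Adamtsl5 and Mmp13 were lost, and without enriched replicate 1 that of Mmp9. The fibroblast markers summed to 379 CPM in enriched KPC-3403 neutrophils and to at most 12.9 CPM in the whole ones, and Timp3 there was 71.0 CPM on 3 UMIs against 0 in both whole sums. The part of free RNA in that value was not tested.

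Fibroblasts and macrophages met in whole KPC-3403 only, with 19 and 38 cells, so no test was made. Of 16 members with enough UMIs, 11 were at least 4-fold higher in fibroblasts (11.6% of all genes) and 2 at least 4-fold lower (10.9%). Timp1 was 30.4 times higher (95% counting interval 20.6 to 46.7), Mmp14 15.1 times (6.89 to 39.1) and Timp2 4.59 times (2.93 to 7.37). Mmp2 was at 678 against 3.50 CPM, the latter 1 UMI, a ratio of 193 (34.0 to 7711).

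Macrophages had no UMI of the other 7 of these 11. Against a floor of 3 UMIs Timp3 was at least 35.2-fold higher in fibroblasts, Adamts2 at least 32.2-fold, Mmp23 and Adamts5 at least 17.0-fold, Adamts1 at least 13.5-fold, Adamts15 at least 8.21-fold and Mmp3 at least 5.86-fold. The 2 lower genes were Mmp12 and Mmp13, which had no UMI in those fibroblasts. Without the 1 macrophage that held 18 of 22 UMIs, Mmp13 was at 14.8 CPM in macrophages, below the fibroblast floor of 18.5 CPM, so that its call rests on that cell.

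Tumour cells against macrophages gave 1 of 34 members higher in tumour cells (10.1% of all genes) and 5 lower (10.6%). Higher was Mmp15, with no UMI in macrophages. Lower were Mmp12 at -11.92 ± 0.98 and Mmp19 at -6.50 ± 0.61 on the log2 scale (edgeR adjusted p = 6.16e-08 and 1.64e-07), with Mmp8, Mmp13 and Mmp9. Mmp9 again rests on 1 macrophage, and its difference turned to 3.20 with all marker minimums doubled. Without enriched replicate 2 only 2 of 24 tested were called, with Mmp8, Mmp9 and Mmp13 lost, and with DESeq2 Mmp12 was lost. Mmp14 and Timp2 did not pass, at 0.66 ± 0.53 and 0.33 ± 0.55 (edgeR adjusted p = 0.434 and 0.758).

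Mmp13 was unevenly spread over cells. In enriched KPC-3403, 8 cells had at least 20 of its UMIs, 4 of them fibroblasts with 104, 81, 22 and 21 UMIs. The other 4 had 326, 307, 134 and 51 UMIs and fell in no gate, and 3 of those 4 had no UMI of Col3a1. Each of the first 2 of these held more than the 256 UMIs of all 382 fibroblasts together. In the same order, the 4 ungated cells had 5, 24, 35 and 9 UMIs of Cdkn2a, and the 4 fibroblasts had 0, 13, 0 and 2. In the same library's tumour cells Mmp13 was at 15.2 CPM, and in both KPC-4545 stromal sums it was at 0.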

How the data were processed

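The authors deposited 1 matrix of raw UMI counts per library (32285 genes, all droplet barcodes), and the depth of each library is given with the results. The submitters' processing notes name Cell Ranger 6.1.1 and the build mm10, whereas version 4 of that software stands in the file headers. Those counts were used as deposited, with no column left out. The members, companion lists and gates were chosen with earlier results of these data known, and gate thresholds were set after seeing the data.

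A barcode counted as a cell with 500 UMIs and 250 genes or more, unless over 20% of UMIs were mitochondrial. Those with up to 5000 UMIs had to differ from free RNA (barcodes of at most 100 UMIs; Dirichlet-multinomial test, 1000 draws, false discovery rate 0.01). Doublets were removed by the highest Scrublet scores at 0.8% per 1000 cells (scanpy 1.11.5). For barcodes shared between libraries a copy at least 10 times shallower was set aside, a step added after seeing the data.

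Counts were summed per class and library with at least 10 cells, which gave 19 sums of the main classes. These were tested with edgeR 4.0.16 (R 4.3.3; quasi-likelihood, TMM, filterByExpr, robust) with library as a block and Benjamini-Hochberg adjustment over all genes at 0.05, and the fit was tested on simulated counts. Tumour sums were fitted apart, on line and preparation. Classes that met in fewer than 2 libraries were compared as ratios of CPM among genes of at least 10 UMIs, called at 4-fold, with 0 set to 3 UMIs and exact 95% counting intervals. Such intervals and floors cover counting error only. CPM levels of a single sum likewise have no replicate error. Named genes are members at 100 CPM or more in a class sum and members that passed a comparison, at most 15 per direction, and companion genes that passed at 100 CPM or more.

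The replicate number stands for the KPC line, which the labels give, so the enriched and whole libraries of a line were paired through it. The deviations of tumour sums of 1 line correlated at 0.566 over 7945 genes. Alternatives were RLE size factors, no filter, DESeq2 1.42.0, no replicate block, at least 20 cells per sum, stricter cell limits (1000 UMIs, 500 genes), no free RNA or doublet step, doubled marker minimums and leaving out each library. Keeping shared barcodes and leaving out stromal cells with Cdkn2a were added after seeing the data. Gene positions are those of GENCODE on GRCm38. No protein sequences are shown, and 1 companion gene is not reported here.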

Additional observations from a re-analysis of the deposited data

Results flagged for a closer look

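In 5 cases the difference between 2 classes had opposite signs in the 2 lines, and the difference between the lines was not tested. Mmp9 in macrophages minus neutrophils was 597.1 CPM in whole KPC-4545 and -441.6 CPM in whole KPC-3403, and the first value rests on 1 macrophage with all 171 UMIs. Mmp8 in the same contrast was 47.9 and -235.2 CPM, on 12 macrophage UMIs in each library.

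The other 3 cases set fibroblasts against Wt1-positive stroma. Mmp3 was -304.4 CPM in enriched KPC-4545 but 399.0 and 4.1 CPM in enriched and whole KPC-3403. Without the 1 Wt1-positive cell that held 194 UMIs, the Wt1-positive level of enriched KPC-4545 was 636 CPM, below the 944 CPM of the fibroblasts, so that this sign rests on that cell. Adamts2 was -157.2 CPM against 164.9 and 150.7 CPM, and Adamts5 -12.2 CPM against 168.1 and 102.5 CPM. KPC-4545 had 25 and 24 cells in these classes.

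Among members with at least 100 UMIs in the cells of a library that fell in no gate, 4 were at a higher level there than in any gated class of the library. In the 643 such cells of enriched KPC-4545, Adamtsl4 was at 50.81 CPM (highest gated class 32.41), Mmp16 at 46.34 CPM on 270 UMIs in 182 cells (highest gated class 19.69) and Mmp28 at 19.40 CPM (highest gated class 13.71). Of these 643 cells 38.3% had at least 3 UMIs of Cdkn2a, against 84.0% of the tumour cells of that library. In the 304 such cells of enriched KPC-3403, Mmp13 was at 201.43 CPM against 53.75 CPM in fibroblasts, with 842 UMIs in 8 cells.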

How the results depend on the processing

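Counts below are members called in either direction. Without a filter on low counts they were 29 in place of 18 for fibroblasts against tumour cells, 2 in place of 1 for fibroblasts against Wt1-positive stroma, 6 in place of 2 between the tumour lines and 2 in place of 0 between preparations. DESeq2 gave 1 in place of 3 for macrophages against neutrophils, 0 for fibroblasts against Wt1-positive stroma and 2 between preparations. Without the replicate block the counts were 0 for fibroblasts against Wt1-positive stroma and 0 between the lines, and 19 in place of 18 for fibroblasts against tumour cells, and 9 calls of single members were lost. Between the lines the count was 1 without the free RNA and doublet step and 0 with marker minimums doubled, a setting that also turned Mmp9 in tumour cells against macrophages to 3.199 on the log2 scale. The cause was not tested in any of these.

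Leaving out 1 library at a time gave 12 to 21 for fibroblasts against tumour cells, 2 to 4 for macrophages against neutrophils, 0 to 3 for fibroblasts against Wt1-positive stroma, 14 to 20 for fibroblasts against neutrophils, 2 to 8 for tumour cells against macrophages, 0 to 6 between lines and 0 to 4 between preparations. The last 2 then have 3 sums and were fitted on 1 factor. Over all genes, fibroblasts against tumour cells gave 2776 calls, 1170 without enriched replicate 2 and 1775 without whole replicate 2, in which fewer sums entered. Between the lines (tumour cells KPC-4545 against KPC-3403) the 80 calls became 0 to 1489 over all settings. Fibroblasts against Wt1-positive stroma gave 55 calls and 2 to 296 over all settings, and between preparations (tumour cells enriched against whole) 3 calls became 723 without the filter and 279 with DESeq2, and more than 723 without enriched replicate 2. Comparisons of 1 library could not be made without that library, and macrophages against neutrophils or fibroblasts and fibroblasts against neutrophils had no value at 20 cells per sum. Comparisons with macrophages or neutrophils had none without a library that left a class in too few sums. Counts of 1 UMI, sums of 16 to 25 cells and single cells holding most UMIs limit the myeloid and KPC-4545 values.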
